A study of Ovis aries with 2 samples.

Results

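The first 20 Mb of sheep chromosome 15, the segment named for the tail-fat candidate gene PDGFD, was examined in subcutaneous fat. Its members were all rows of both FPKM tables on chromosome 15 with a deposited start below 20000000 and a span of at least 200 bp. These were 127 of 34927 rows in the thin-tailed table and 140 of 36511 in the fat-tailed table, and 48 pairs of rows could be compared. RNA came from Iranian native sheep that were weaned at 90 days, fed the same diet for 120 days and slaughtered at 7 months without treatment, per the labels, and both tail types shared all of this. The label that gives the husbandry ends with a sentence on chicks that cannot describe these sheep. With 1 library per tail type, differences have no replicate check and no test was possible. The title of one library begins with Thin and that of the other with Fat, and reading Fat as the tail type sets every direction given here, although the tissue itself is also fat. The number of animals behind a library was not stated in any source used here.

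PDGFD encodes platelet-derived growth factor D, a secreted ligand that is activated by proteolytic cleavage and signals mainly through the beta receptor of the PDGF family. Its targets are mesenchymal cells, among them the stromal progenitors of adipose tissue, and genome scans of fat-tailed breeds have repeatedly pointed to its region. In the RefSeq annotation of the assembly ARS-UI_Ramb_v3.0, PDGFD is on chromosome 15. The nearest coding genes with a gene name listed before it there are CASP1, an inflammatory caspase, and GRIA4, a glutamate receptor subunit. Those listed after it are DDI1 and DYNC2H1, the latter a motor protein of cilia. Only this order is given here, so a listed gene may also lie within PDGFD. None of the 57 Ensembl identifiers listed for the segment in the thin-tailed table, or of the 63 in the fat-tailed table, occurred in that annotation. The name in the label could therefore not be checked, no locus below is called PDGFD, and loci are given by their deposited positions, counted from 1, on a genome build that no source used here names. For the same reason the PDGF ligands and receptors and the markers of adipocytes and other cell types of fat could not be measured.

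FPKM is the number of mapped fragments scaled to transcript length and library size, and each value carries a deposited lower and upper bound, given here in brackets. Rows of the tables were paired where each was the other's best match, with a reciprocal overlap of 80% or more. Pairs with at least 1 FPKM in 1 library were compared by the log2 of (fat-tailed FPKM + 1) over (thin-tailed FPKM + 1). A pair was counted as 2-fold higher at 1 or more and as 2-fold lower at -1 or less. Because of the added 1, a low pair must differ by more than 2-fold in FPKM to be counted. The number of fragments behind a value was read from the width of its interval and is called implied fragments. It comes from the same estimate as the FPKM and is no independent evidence. Among members with at least 1 FPKM, the median was 68.7 implied fragments for the thin-tailed library and 44.6 for the fat-tailed one, and the median distance from a value to its upper bound was 24.1% and 30.0% of the value. The total depth of the libraries is unknown.

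Most pairs of the segment lay within 2-fold, and 11 of the 48 lay past it. Of the 48, 3 (6.25%) were 2-fold higher in the fat-tailed library, against a background of 8.22% over all 13030 compared pairs of the genome. Another 8 (16.7%) were 2-fold lower, against 14.7% in the genome. Both shares were thus near the background. The median log2 ratio was -0.16 (quartiles -0.41 and 0.34), against -0.12 over all pairs, and 28 of the 48 ratios were below 0, against 56.6% of all pairs. On the rest of chromosome 15, 25 of 330 pairs (7.58%) were higher and 43 (13.0%) lower, with a median of -0.08. Deposited intervals did not overlap for 18 of the 48 pairs (37.5%), against 50.6% in the genome. Across pairs, which are not independent replicates and share the libraries, the Spearman correlation of FPKM was 0.757 in the segment and 0.886 on the rest of the chromosome.

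**Figure D1:**
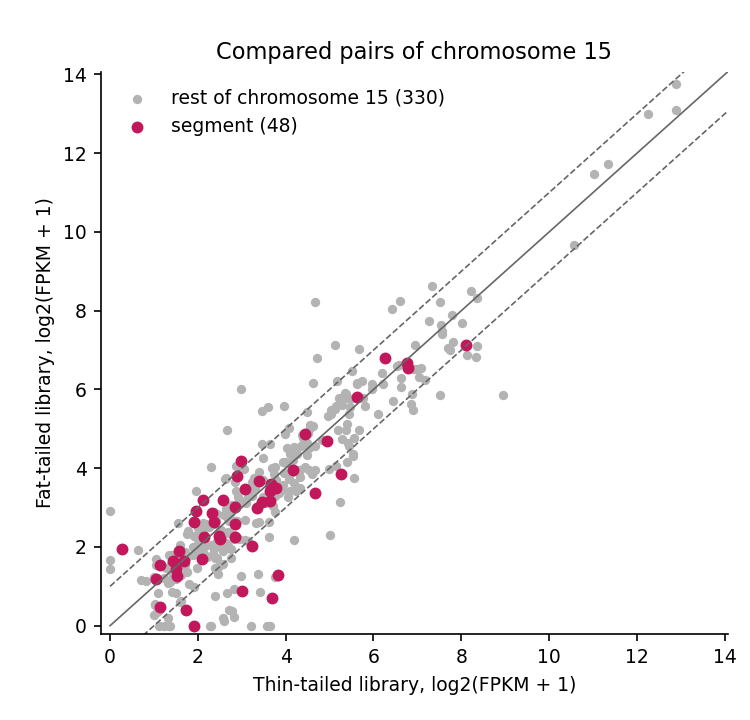
Compared pairs of chromosome 15, with log2(FPKM + 1) in the thin-tailed library on the horizontal axis and in the fat-tailed library on the vertical axis. The 48 pairs of the segment (dark) reach up to 273.0 FPKM and lie among the 330 pairs of the rest of the chromosome (grey); the solid line marks equality and the dashed lines 2-fold.

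The segment was thinly filled, with 2.40 compared pairs per Mb against 5.42 on the rest of the chromosome. Of its 20 steps of 1 Mb, 17 held a compared pair and 8 held a pair past 2-fold. The steps from 9 to 12 Mb held none. From 1 to 2 Mb there were 7 pairs, the most in any step, with a median log2 ratio of 0.15, and 1 of them was 2-fold lower. Medians were above 0 in 9 of the 17 steps and below 0 in 8. Every ratio was above 0 from 12 to 13 Mb and from 15 to 16 Mb, with 2 pairs each, and 3 of 4 were from 14 to 15 Mb, with no pair past 2-fold in these steps. From 6 to 7 Mb, 1 of 4 pairs was higher and 2 were lower, with a median of -0.86. From 13 to 14 Mb all 5 ratios were below 0, between -1.92 and -0.03, with 1 pair 2-fold lower. From 17 to 18 Mb all 5 ratios were again below 0, between -2.53 and -0.04, with 2 pairs lower and a median of -0.96. Among steps with at least 3 pairs, medians ran from -0.96 to 0.29 over 8 steps of the segment and from -1.37 to 0.48 over 43 steps of the rest, so the lowest steps of the segment lay inside the range of the rest.

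**Figure D2:**
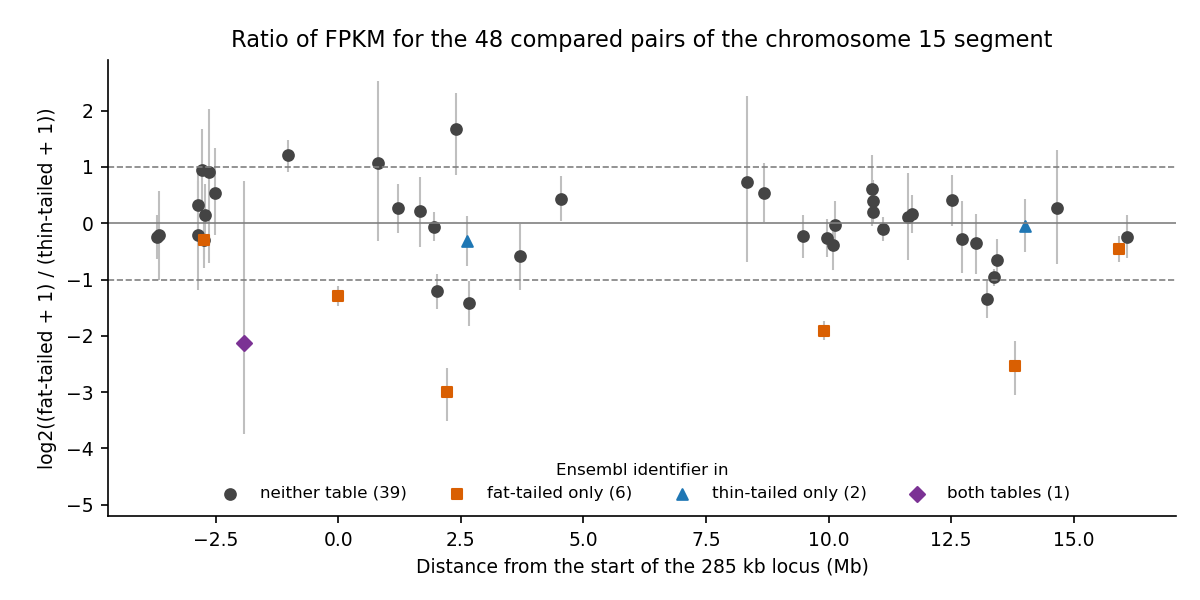
Log2 ratio of the 48 compared pairs (vertical axis) by distance in Mb from the start of the locus at 3848546 (horizontal axis), with marker and colour showing which table names the locus by an Ensembl identifier. Vertical lines run from the lower fat-tailed against the upper thin-tailed bound to the reverse, and dashed lines mark 2-fold; 11 points lie past them, 3 above and 8 below.

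The stretch from 3 to 5 Mb held 4 thin-tailed and 5 fat-tailed member rows, and 2 compared pairs, 1 lower and 1 higher. A locus of 285453 bp (15:3848546-4133998) with identical ends in both tables was the more strongly expressed of these pairs. It read 24.3 FPKM (22.9 to 25.7) for the thin-tailed library and 9.33 FPKM (8.65 to 10.02) for the fat-tailed one. These intervals did not overlap, and the difference was 2.60-fold by FPKM, a log2 ratio of -1.29. By implied fragments, 1255 against 751.1, the same locus was 1.67-fold lower, which is short of 2-fold. The fat-tailed table names it by the identifier ENSOARG00000003293, while the thin-tailed table holds an assembled locus there, and the transcript length behind each FPKM is not in the tables. A row of 1191 bp nested inside it (3979258 to 3980448) was listed at 0 in both tables.

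Just beyond that locus the libraries were read differently. A fat-tailed row (4134052 to 4135015) began 53 bp after its end and read 3.57 FPKM (2.17 to 4.98) on 25.8 implied fragments, and no thin-tailed row overlapped it. From 5822 bp beyond the end, rows of both tables overlapped by 68.6% and so missed the pairing threshold. The thin-tailed row (4139821 to 4142378) read 9.65 FPKM (8.37 to 10.9) and the fat-tailed row (4140625 to 4142397) 8.41 (6.92 to 9.90), with overlapping intervals and a log2 ratio of -0.18. The FPKM intervals of the long locus, by contrast, lay apart. By implied fragments, 226.1 against 128.0, the overlapping rows differed 1.77-fold, lower in the fat-tailed library. The long locus differed 1.67-fold by that measure, so the contrast holds for FPKM only.

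The other pair of this stretch was a locus of 385838 bp in the thin-tailed table (4658986 to 5044823), which started 8 bp earlier in the fat-tailed one. Thin-tailed RNA read 3.36 FPKM (1.26 to 5.46) and fat-tailed RNA 8.11 (4.19 to 12), a log2 ratio of 1.06. The intervals overlapped, and the values rested on only 10.2 and 17.1 implied fragments, so the fold is poorly fixed. Overlap of intervals does not by itself show that the values were alike.

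Among the other 7 lower pairs, 5 were loci of which the fat-tailed table lists an end or an inner part as separate rows, and the lowest ratio of the segment was one of them. In 1 such pair the thin-tailed row (6070474 to 6208371) read 12 FPKM (11.1 to 12.8). Its fat-tailed partner (6073422 to 6208371), named ENSOARG00000006660, read 0.619 FPKM (0.206 to 1.03), 19.3-fold lower. The fat-tailed table held a further row over the missing end (6070237 to 6072788) at 26.6 FPKM (24.4 to 28.8), with 593.3 implied fragments, against 9.0 in the partner and 733.5 in the thin-tailed row. Summed over both fat-tailed rows, the locus was 1.22-fold lower by implied fragments.

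The thin-tailed row from 17645357 to 17662802 read 13.2 FPKM (12.2 to 14.3) and its fat-tailed partner (17647714 to 17662802) 1.46 (0.840 to 2.09), a 9.05-fold difference. Further fat-tailed rows at 17645421 to 17646395 and 17646472 to 17647224 read 51.6 FPKM (46.3 to 56.9) and 7.88 FPKM (5.39 to 10.4). With these rows included, implied fragments came to 603.8 against 440.7, which is 1.37-fold lower for the fat-tailed library. The thin-tailed row shares its identifier with another thin-tailed row that starts at 17504160.

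In the next pair the values were 2.33 FPKM (2.03 to 2.62) for the thin-tailed row (17088942 to 17214494) and 0.312 (0.131 to 0.493) for the fat-tailed row (17088942 to 17210813). A further fat-tailed row at its end (17211560 to 17214491) read 5.68 FPKM (4.75 to 6.60), and the summed implied fragments, 244.6 and 162.9, differed 1.5-fold. Another thin-tailed row (13755425 to 13777536) read 2.78 FPKM (2.34 to 3.22), and the fat-tailed partner (13755425 to 13774117) was listed at 0. The adjoining fat-tailed row (13775242 to 13777832) read 7.53 FPKM (6.37 to 8.68), and the sums of implied fragments were 160.4 and 170.3, with the fat-tailed library now slightly higher.

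Nearer the start of the chromosome, the thin-tailed row from 5861839 to 5967567 read 8.42 FPKM (7.61 to 9.22) and the fat-tailed row (5861839 to 5967347) 3.08 (2.54 to 3.62), 2.74-fold lower. Nested in it, the fat-tailed table held 3 further rows at 11.6, 1.45 and 165.7 FPKM, the last with a wide interval (65.8 to 265.6) on 11 implied fragments. The row at 1.45 FPKM is listed under the same identifier as the fat-tailed row of the pair. Over all rows joined to this pair by overlap, implied fragments were 940.3 and 765.7, a 1.23-fold difference. These sums hold the adjoining pair at 5793951 (433.0 and 424.6), and without it they were 507.3 and 341.2, a 1.49-fold difference. The thin-tailed sum also holds a nested row of its own (5953999 to 5955083) with 69.5 implied fragments.

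In these 5 pairs, between 82.8% and 100% of the fat-tailed implied fragments lay outside the row that formed the pair. For the pair at 5861839 the share was 61.5% once the neighbour at 5793951 was left out, and 82.8% with it. The log2 ratios of the pairs ran from -3.00 to -1.21, and those of the summed implied fragments from -0.59 to 0.087. The locus at 3848546 differed from them: it also overlapped a further row, but that row was listed at 0. Summing therefore left its implied fragments unchanged, at 1255 against 751.1. These fragments gave a log2 ratio of -0.74, short of 2-fold, whereas the FPKM of this locus gave -1.29. The part of the row boundaries in the FPKM differences was not tested, since read counts were not used here.

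**Figure D3:**
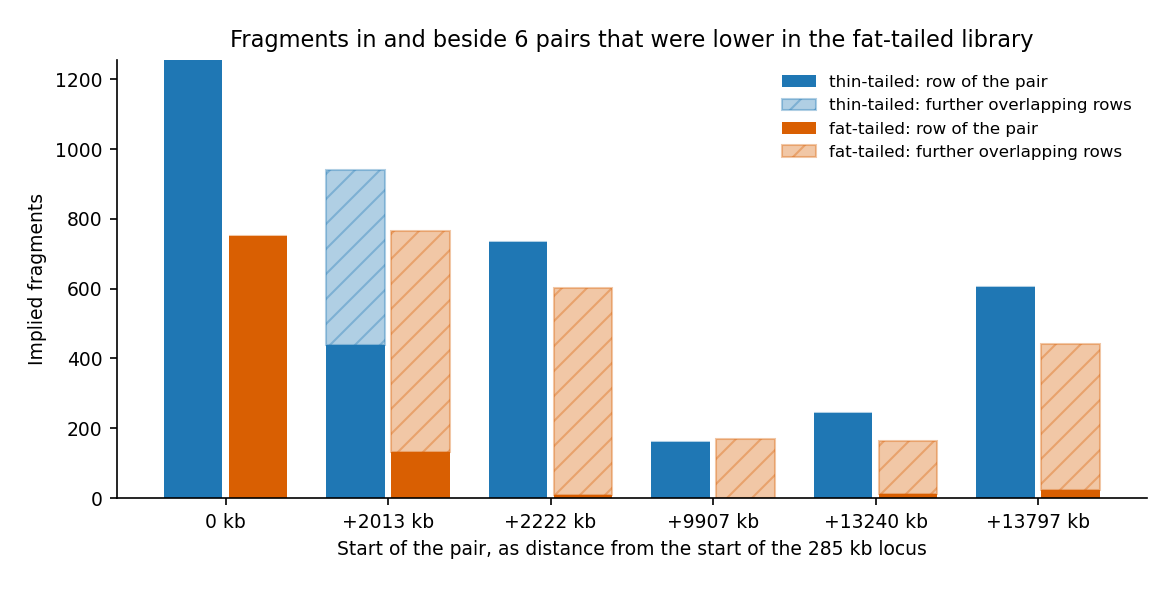
Implied fragments (vertical axis) of 6 pairs that were 2-fold lower by FPKM in the fat-tailed library, placed by distance in kb from the start of the locus at 3848546. Solid bars are the row of the pair and hatched bars all further rows joined to it by overlap; in 5 of the 6, most fat-tailed fragments are in hatched bars, while the first pair, at 1255 against 751.1, has none.

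The remaining 2 lower pairs had a single partner in each table. A short locus at 6505085 to 6506237 read 37.3 FPKM (33.4 to 41.3) for the thin-tailed library and 13.4 (10.9 to 15.9) for the fat-tailed one, where its row runs from 6505087 to 6506206. It was 2.79-fold lower by FPKM and 3.0-fold lower by implied fragments, 353.8 against 118.0, and the intervals did not overlap. No further row was involved here, and both measures gave nearly the same fold. The other, at 1916923 to 1917451, carries an identifier in both tables and read 7.00 FPKM (1.60 to 12.4) and 0.839 (0 to 3.36). Its intervals overlapped, with 6.72 implied fragments in the thin-tailed library and 0.443 in the fat-tailed one, so its fold is poorly fixed.

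Of the 3 higher pairs, 1 lies in the 3 to 5 Mb stretch described above. A locus at 2812872 to 2851062, with the same ends in both tables, read 6.94 FPKM (6.32 to 7.57) for the thin-tailed library and 17.3 (15.2 to 19.4) for the fat-tailed one. It was 2.49-fold higher by FPKM with intervals apart, yet by implied fragments, 492.1 against 267.5, it was lower in the fat-tailed library. In the third higher pair the thin-tailed row (6243771 to 6271681) read 0.212 FPKM (0 to 0.513) and the fat-tailed row (6243243 to 6271681) 2.86 (1.74 to 3.99). Only 1.99 implied fragments stood behind the thin-tailed value and 26 behind the fat-tailed one, so the direction was shared by both measures while the fold is poorly fixed.

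By implied fragments, 1 of the 3 higher pairs and 6 of the 7 lower pairs with a value in both libraries also differed 2-fold the same way. With implied fragments summed over all overlapping rows, 1 of the 3 higher and 2 of the 8 lower pairs did. Over the segment's 47 pairs with implied fragments in both libraries, 1 was 2-fold higher and 9 were 2-fold lower by them, against 7.11% and 16.7% of such pairs in the genome. These lower pairs were not all lower by FPKM. At 1218135, implied fragments were 39.9 against 10.2, while the fat-tailed FPKM was 2.02-fold higher. At 14730032 they were 113 against 42.4, with the fat-tailed FPKM 1.64-fold higher. The FPKM intervals of both pairs overlapped. In all compared pairs of the segment with such values, the median log2 ratio of implied fragments was -0.23, against -0.17 in the genome.

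**Figure D4:**
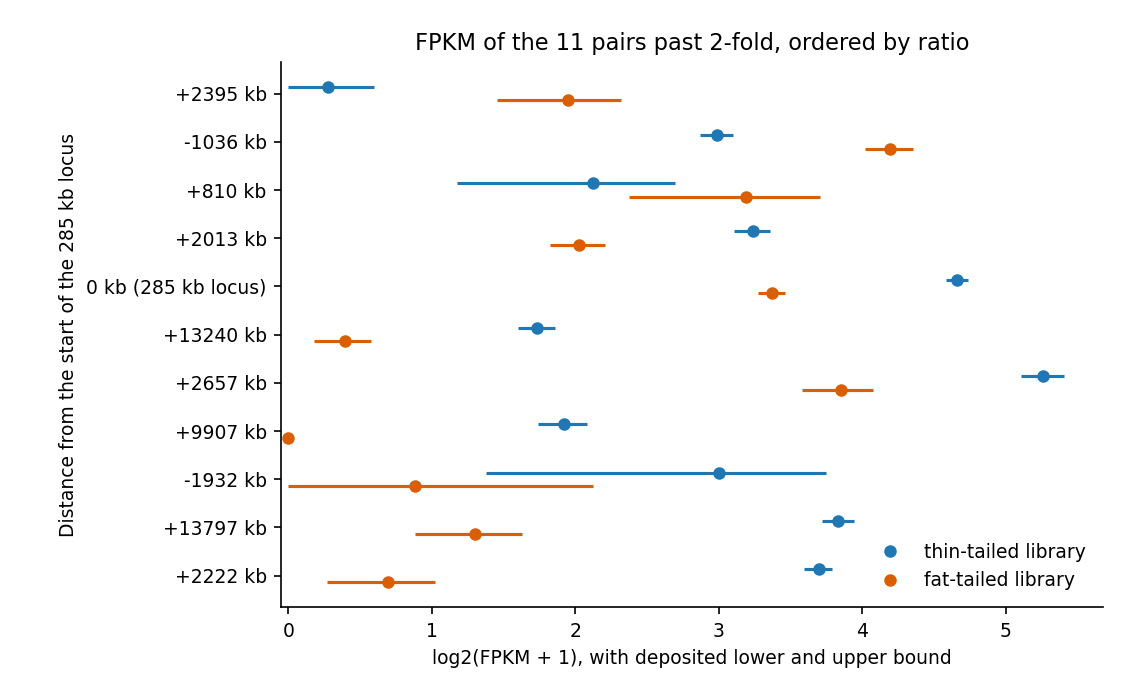
The 11 pairs past 2-fold, ordered by ratio, each labelled by its distance in kb from the start of the locus at 3848546; the horizontal axis is log2(FPKM + 1), points are the deposited values of each library and lines the deposited bounds. The bounds overlap at 810.4 and -1932 kb, and the fat-tailed value at 9907 kb is listed at 0.

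The 6 compared pairs with the highest mean FPKM outside 3 to 5 Mb lay within 2-fold. Some rows that formed no pair read higher than most of these, such as the nested row at 165.7 FPKM described above. A fat-tailed row without a pair (17506314 to 17506735) read higher than all of them, at 14591 FPKM. At 17226738 to 17256984 the thin-tailed library read 273.0 FPKM (259.8 to 286.2) and the fat-tailed 139.7 (131.9 to 147.5), 1.95-fold lower with a log2 ratio of -0.96, just short of the threshold, and 1.35-fold lower by implied fragments. Its intervals were clearly apart. The locus at 14948583 to 14956828 read 107.7 FPKM (99.4 to 116.1) and 100.1 (92.7 to 107.5), with overlapping intervals. It was lower by FPKM as deposited, with a log2 ratio of -0.10, and higher by implied fragments (0.14) and after centring on the median of all pairs (0.015). Near the end of the segment, 19943925 to 19975032 read 109.9 FPKM (95.9 to 123.8) and 92.8 (79.9 to 105.7), again with overlap. A locus of 360 bp at 12521169 to 12521528 was higher in the fat-tailed library, at 75.9 FPKM (60.7 to 91.1) against 111.2 (93.1 to 129.4), 1.47-fold on the FPKM and 1.5-fold on the implied fragments. At 14756992 to 14761409 the values were 48 FPKM (45.9 to 50.1) and 55.2 (52.6 to 57.7), 1.15-fold higher by FPKM but lower by implied fragments (2092 against 1855). The first abundant locus of the chromosome, 141261 to 142257, read 29.8 FPKM (25.9 to 33.7) and 25 (21.4 to 28.7), with overlapping intervals. Of these 6 loci, 3 had intervals that overlapped, and the one at 17226738 had the ratio nearest to 2-fold.

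Of the 37 pairs within 2-fold, 28 had overlapping intervals. Beside the lower pair at 5861839, a locus spanning 5793951 to 5871347 read 11.7 FPKM (10.6 to 12.8) and 11.2 (10.1 to 12.3). Beyond the 3 to 5 Mb stretch, 5069731 to 5094791 read 9.58 FPKM (8.01 to 11.2) and 11.7 (9.84 to 13.6), with overlapping intervals. Toward the start of the chromosome, the nearest compared pair was the one at 2812872, which was higher by FPKM. For 3 neighbouring loci between 13815836 and 14001560 the fat-tailed FPKM was slightly lower, with overlapping intervals. Thin-tailed and fat-tailed FPKM were 6.23 and 5.01 for the locus starting at 13815836, 3.27 and 2.25 for that at 13936929, and 2.21 and 2.14 for that at 13980012. By implied fragments the last was 1.65-fold higher in the fat-tailed library (73.5 against 120.9), where its row also overlaps a second thin-tailed row.

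Pairs with intervals apart but within 2-fold numbered 9, 5 of them higher and 4 lower for the fat-tailed RNA. At 1070841 to 1073291 the values were 2.92 FPKM (2.11 to 3.72) and 6.57 (4.20 to 8.93), 2.25-fold higher by FPKM and kept under the threshold by the added 1, and lower by implied fragments (52.0 against 30.9). At 8390097 to 8391082 they were 20.8 FPKM (17.5 to 24.0) and 28.4 (24.6 to 32.2), higher by both measures. At 7550087 to 7551817 they were 6.21 FPKM (4.94 to 7.48) and 3.81 (2.73 to 4.88), and at 19764545 to 19829080, 11.4 (10.5 to 12.3) and 8.01 (7.27 to 8.76), both lower by both measures.

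How a locus was listed moved with its ratio. In the segment, 6 pairs had an Ensembl identifier in the fat-tailed table only, all 6 were below 0, and 4 were 2-fold lower, with a median of -1.61. The 39 pairs with an identifier in neither table had a median of 0.12, with 3 higher and 3 lower. The same held outside the segment: of 731 pairs named in the fat-tailed table only, 49.4% were 2-fold lower and 1.78% higher, against 12.2% and 8.04% of the 11110 pairs named in neither. Where the thin-tailed table alone held the identifier, 6.75% of 326 pairs outside the segment were lower and 26.4% higher. The 2 such pairs of the segment went the other way, with log2 ratios of -0.31 and -0.04. Of the 15 pairs whose thin-tailed row overlapped further fat-tailed rows, 6 were 2-fold lower and none higher. Of the 30 pairs with 1 partner on each side, 2 were lower and 2 higher. Over the genome, 21.1% of 4426 pairs with further fat-tailed rows and 11.5% of 7980 pairs with 1 partner were lower. Higher were 8.45% and 7.12% of them. On the rest of the chromosome the corresponding shares of lower pairs were 22.4% of 116 and 7.11% of 197, and those of higher pairs 9.48% and 5.08%, so there both directions were more frequent among pairs with further fat-tailed rows. The locus at 3848546 belongs to both classes, with its identifier in the fat-tailed table only. The part of the listing in the differences was not tested.

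Longer loci also read lower. In the segment the median log2 ratio was 0.12 for 17 pairs under 10000 bp and -0.24 for 31 longer ones, and on the rest of the chromosome 0.13 for 130 and -0.22 for 200. The median span was 25351 bp in the segment and 14994 bp on the rest.

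Every member was accounted for. The pairs took 98 rows of each table, or 77.2% of thin-tailed and 70.0% of fat-tailed members, and 50 of these pairs stayed below 1 FPKM in both libraries. Of the 50, 34 were listed at 0 in both tables, and 31 of the 34 carried an Ensembl identifier in both. The other 16 read at most 0.875 FPKM. A further 22 thin-tailed and 34 fat-tailed rows overlapped rows of the other table without forming a pair, and 7 and 8 rows overlapped none. Lowering the required overlap to 50% added 11 pairs, with log2 ratios from -1.25 to 1.19, 1 of them 2-fold higher and 1 lower. The lower one again had a fat-tailed row that ended early: 6981287 to 7043420 at 1.89 FPKM (1.40 to 2.39) was the thin-tailed row, and 6981287 to 7029374 at 0.218 (0.0531 to 0.382) the fat-tailed one. Summed over all its overlapping rows, implied fragments of the lower one were 58.4 against 67, slightly higher in the fat-tailed library. The higher one, at 15458784 to 15460068 in the thin-tailed table, read 1.92 FPKM (1.08 to 2.75) against 5.65 (3.47 to 7.82). By implied fragments, 21 against 26.9, it was 1.28-fold higher.

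At the edge of the segment, the last pair inside is the one at 19943925 given above, and the first outside, at 20078849 to 20261151, read 1.49 and 0.148 FPKM, a log2 ratio of -1.12. The pair nearest above the overlap threshold, at 14754023, overlapped by 82.0% and read 7.44 and 10.1 FPKM, and the nearest below, at 17031506, by 78.3% and read 2.20 and 2.64 FPKM. Nearest above 1 FPKM was 17279085 to 17331771, at 1.19 and 0.386 FPKM, and nearest below 13330844 to 13332418, at 0.875 and 0.220 FPKM.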

How the data were processed

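Poly(A) RNA of subcutaneous fat was sequenced in 1 thin-tailed and 1 fat-tailed library. The deposited values are FPKM with a lower and an upper bound per locus with the column names that Cufflinks tools write, per the file headers. FastQC, TopHat and Cuffdiff are listed per the submitters' processing notes, with versions, build, annotation and strand handling left unstated (not given in the sources used here). Gene names, read counts and transcript lengths are not in the tables.

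Deposited starts count from 0 (checked on mitochondrial genes) and were printed with 1 added. Rows under 200 bp were left out, tied partners (73 in all) were dropped, and 24252 pairs were formed over the genome, 13030 of them with at least 1 FPKM. A pair was placed by the smaller start of its rows. Implied fragments are (2 × FPKM/(upper bound - FPKM)) squared, which holds if the bounds lie 2 Poisson standard deviations away. A value below 1, such as 0.443 for the fat-tailed row at 1916923, cannot be a whole count. The reading as fragments therefore does not hold for every row. They were not adjusted for depth. Pairing and ratios were tested on simulated data, a copy of thin-tailed rows with starts moved slightly and values changed. Loci split between tables were not simulated. Python 3.11.15, pandas 2.3.3 and numpy 2.4.6 were used. With 1 library per tail type, no test was made.

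The segment, its members and the thresholds were chosen with earlier results of these data known. Loci named were every compared pair from 3 to 5 Mb, then up to 6 highest and 6 lowest ratios with values above 0 and intervals apart, and the 6 highest mean FPKM. All other loci given were chosen after their values were seen. The planned lists of PDGF genes and cell type markers could not be measured without gene names.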

Additional observations from a re-analysis of the deposited data

How the results depend on the processing

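No paired analysis was possible because the design has 1 library per tail type, and leaving a library out would leave no comparison. Of 15 alternatives, 12 were planned and 3 (identifier classes, single partners, summed fragments) were added after the data were seen. From 3 higher and 8 lower pairs, the segment's counts moved by over 1.5 times as follows: 5 higher with a pseudocount of 0.1, 0 higher and 5 lower with a pseudocount of 5, 1 higher among pairs that overlap no other locus of their own table, 5 higher after centring, 1 higher by implied fragments, 4 lower among pairs named in both tables or neither, 2 lower among pairs with single partners, and 1 higher and 4 lower by summed fragments. Lower pairs outnumbered higher ones under 14 of the 15, and under single partners both counts were 2. They did so under all 15 on the rest of the chromosome, and over the genome 1910 pairs were lower and 1071 higher. The alternatives share the same libraries, so their number adds no support. On the rest of chromosome 15, 25 higher and 43 lower became 15 and 22 with a pseudocount of 5, 9 and 22 without overlaps in their own table, 10 and 14 with single partners, and 15 and 28 by summed fragments. From 3 to 5 Mb, the 1 higher pair became 0 with a pseudocount of 5, by implied fragments and by summed fragments. The 1 lower pair there became 0 by implied and summed fragments, and among pairs named alike or with single partners, which leave out the 3848546 locus by construction. Among pairs that overlap no other locus of their own table, neither pair of this stretch is left, so it has no value there. Of the pairs past 2-fold, the direction reversed for the locus at 2812872, to a log2 ratio of -0.88 by implied and -0.95 by summed fragments, and for that at 13755425, to 0.087 by summed fragments, which add the adjoining row by construction. Among the abundant pairs within 2-fold, that at 14756992 went from 0.20 to -0.17 and that at 14948583 from -0.10 to 0.14 by implied and summed fragments, the latter also to 0.015 after centring. The cause of these reversals was not tested. The segment's median ran from -0.25 to 0.04. Equal FPKM totals moved the median of all pairs from -0.12 to -0.15. Depth limits single values: 8.11 FPKM at 4658978 rested on 17.1 of them and 1.19 FPKM at 17279085 on 51.2.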

Other observations

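Some rows of the segment belong to no comparison and were singled out after their values were seen. A fat-tailed row of 422 bp (15:17506314-17506735) read 14591 FPKM (13929 to 15254), the highest value among all members. The thin-tailed table held a row of 150 bp over part of it (17506594 to 17506743) at 6893 FPKM (2736 to 11049), which is too short to be a member. Both rows lie inside a locus of 58764 bp that read 0.626 FPKM in thin-tailed and 0.310 FPKM in fat-tailed RNA. The rows differ in span, and no direction was read from them.

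The 7 thin-tailed rows that overlapped no fat-tailed member spanned 447 to 1793 bp, with a median of 2.28 FPKM. The highest, at 6053784 to 6054230, read 22.5 FPKM (16.1 to 28.9). The 8 fat-tailed rows that overlapped no thin-tailed member spanned 534 to 1108 bp, with a median of 3.34 FPKM and at most 6.07. Absence of a row does not show absence of the transcript.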
